A study of Homo sapiens with 5 samples.

Results

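Neutrophil genes were followed across 5 RNA sequencing libraries of the human embryonic stem cell line H9. The set was a named list of 35 genes, chosen by symbol from known neutrophil genes with their TPM values in these libraries in view, so those values describe the set and test nothing. All 35 were found by symbol among the 26506 genes of the deposited table. Members were ordered by when their products are made in neutrophil maturation. There were 11 primary granule genes, 11 secondary and tertiary granule genes, and 13 genes of the mature cell's surface, cytosol or nucleus.

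Each group was 1 library. The B3GALT5-knockout cells (genotype B3GALT5-/-) were profiled in 2iLAF medium, labelled naive, and in basal medium, labelled primed. Wild-type (WT) cells were profiled in 5iLAF medium, labelled naive, in 2iLAF medium, labelled primed-naive and used as a control, and in basal medium, labelled primed. All 5 libraries came from the same cell line, and B3GALT5 encodes a galactosyltransferase that acts in glycolipid synthesis. The sources used here do not say which part of the gene was edited or whether the knockout was 1 clone. With 1 library per group there was no replicate, no error between cultures and no test, so every ratio describes these libraries.

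Neutrophils are the most abundant white cells of human blood and are made in the bone marrow. Their precursors fill granules in a fixed order: primary (azurophil) granules hold serine proteases, myeloperoxidase and defensins, secondary (specific) granules hold lactoferrin and its partners, and tertiary granules hold gelatinase. Transcription of the granule genes is largely shut off as the nucleus segments, when genes for chemokine receptors, Fc receptors and the S100 calprotectin subunits are strongly transcribed. Embryonic stem cells are not known for most of these products.

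The libraries were comparable in breadth. Between 13729 and 14156 genes reached 1 TPM (TPM is a transcript level corrected for gene length, on a common total per library). No read counts were given, so sequencing depth could not be stated. B3GALT5 itself was at 1.17 TPM in B3GALT5-KO 2iLAF, 2.08 TPM in WT 5iLAF, 5.13 TPM in WT 2iLAF, 5.98 TPM in B3GALT5-KO basal and 9.31 TPM in WT basal. Its transcript was thus present in both knockout libraries, and without the edited position this level does not check the genotype. The pluripotency gene POU5F1 was between 1099 and 3350.3 TPM, so all libraries carried the labelled cell type's defining transcript. Among genes of another blood lineage, 6 adult and fetal globin genes summed to 220.6 TPM in B3GALT5-KO 2iLAF, 12.1 TPM in WT 5iLAF, 0.17 TPM in WT 2iLAF, 3.12 TPM in B3GALT5-KO basal and 221.5 TPM in WT basal.

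All 35 neutrophil genes were at their highest level in B3GALT5-KO 2iLAF. Each reached 1 TPM there, 21 reached 10 TPM and 6 reached 100 TPM. In the other 4 libraries, 29 of the 35 stayed below 1 TPM, and 17 of those were listed at 0 in all 4. The members summed to 1902 TPM in B3GALT5-KO 2iLAF, which was 0.190% of that library, against 60.5 TPM in WT 5iLAF, 7.82 TPM in WT 2iLAF, 14.6 TPM in B3GALT5-KO basal and 21.1 TPM in WT basal. Bulk RNA cannot tell more cells of a type from more RNA per cell.

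**Figure D1:**
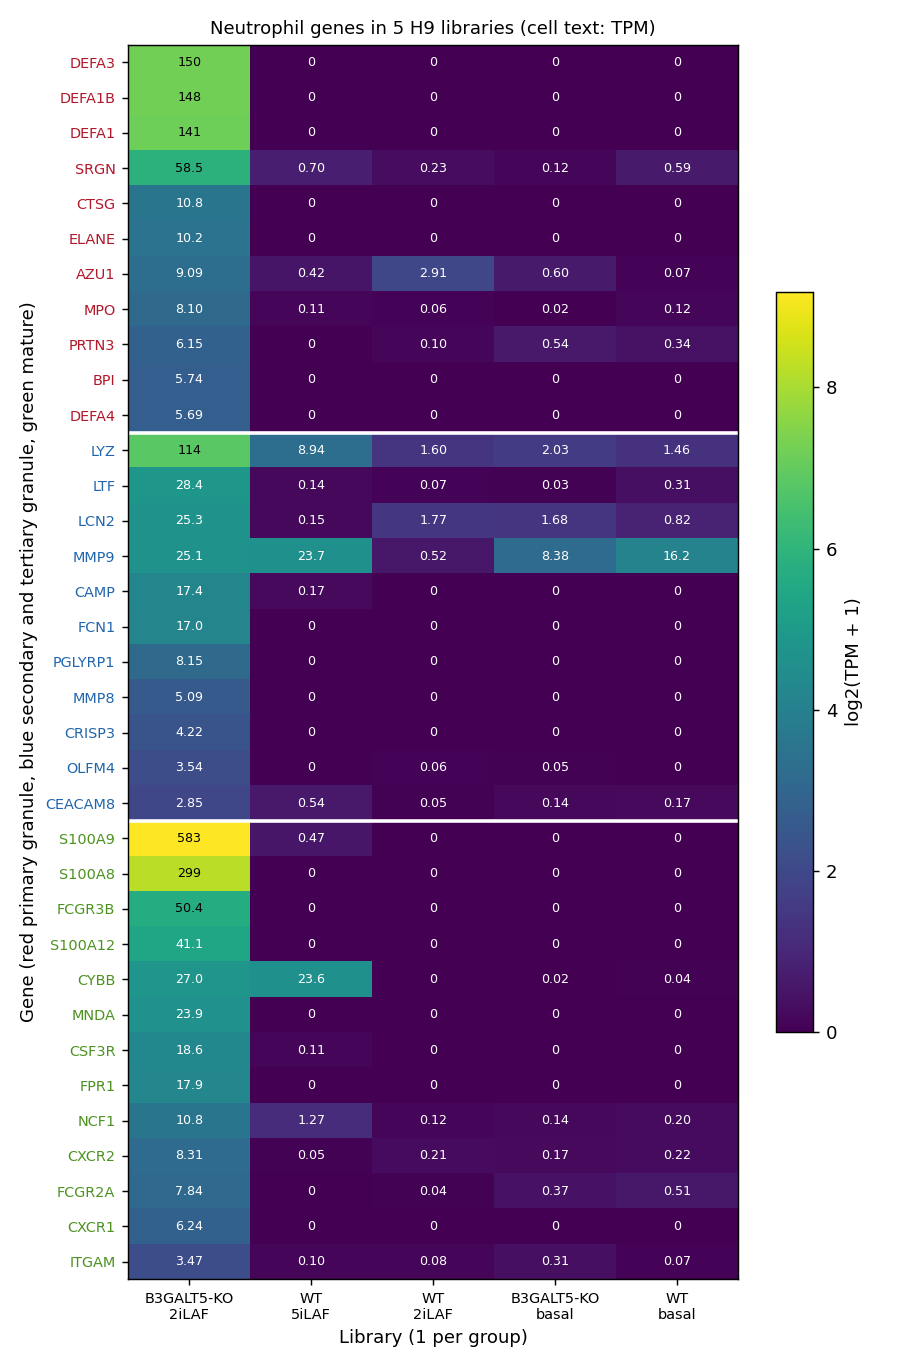
Level of each of the 35 neutrophil genes (rows, coloured by maturation stage) in each of the 5 libraries (columns, 1 library per group), with colour as log2(TPM + 1) and the TPM value in each cell. The B3GALT5-KO 2iLAF column is filled from 2.85 to 583 TPM, while most cells of the other columns are 0 or below 1 TPM, apart from MMP9, CYBB and LYZ.

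By stage, the sum in B3GALT5-KO 2iLAF was 554 TPM for primary granule genes, 251 TPM for secondary and tertiary granule genes and 1098 TPM for mature genes, or 29.1%, 13.2% and 57.7% of the members' total. All 3 stages were therefore represented, and a few genes carried most of the sum. S100A8, S100A9, DEFA1, DEFA1B and DEFA3 together made up 69.5% of it. In the remaining libraries the primary granule sum lay between 1.12 TPM in WT basal and 3.30 TPM in WT 2iLAF. The mature sum was 25.6 TPM in WT 5iLAF, nearly all of it CYBB, and between 0.45 and 1.04 TPM in WT 2iLAF and both basal libraries.

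The alpha-defensins, small peptides that puncture microbial membranes, were the most abundant primary granule transcripts. DEFA3 was at 150.1 TPM, DEFA1B at 148 TPM and DEFA1 at 141 TPM in B3GALT5-KO 2iLAF, and all were listed at 0 in WT 5iLAF, WT 2iLAF, B3GALT5-KO basal and WT basal. These genes are near-identical copies, so the division of reads among them is uncertain and their sum, 439 TPM, is the safer value. DEFA4, a more divergent defensin next to them on chromosome 8, was at 5.69 TPM and was likewise listed at 0 elsewhere. The neighbouring DEFA5 and DEFA6, known from Paneth cells of the gut, were at 0.27 and 0.52 TPM in B3GALT5-KO 2iLAF, 0 and 1.19 TPM in WT 5iLAF, and 0 in the other libraries.

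The remaining granule proteins of the primary stage lay close to each other. CTSG (cathepsin G) was at 10.85 TPM, ELANE (neutrophil elastase) at 10.2 TPM and BPI, which binds bacterial lipopolysaccharide, at 5.74 TPM in B3GALT5-KO 2iLAF, and all were listed at 0 in the other 4 libraries. These proteases and BPI thus had a value in B3GALT5-KO 2iLAF alone. MPO, the myeloperoxidase that makes hypochlorous acid, was at 8.10 TPM in B3GALT5-KO 2iLAF, 0.11 TPM in WT 5iLAF, 0.06 TPM in WT 2iLAF, 0.02 TPM in B3GALT5-KO basal and 0.12 TPM in WT basal. PRTN3 (proteinase 3) was at 6.15 TPM in B3GALT5-KO 2iLAF, 0 in WT 5iLAF, 0.10 TPM in WT 2iLAF, 0.54 TPM in B3GALT5-KO basal and 0.34 TPM in WT basal. Set side by side in the length-corrected unit, MPO, ELANE, AZU1, PRTN3, CTSG, BPI and DEFA4 spanned 5.69 to 10.85 TPM, below any of the DEFA1 and DEFA3 copies. The 4 other libraries held MPO and PRTN3 below 1 TPM. SRGN encodes serglycin, the proteoglycan core that packs granule proteases and is shared by many blood cells. It was at 58.5 TPM in B3GALT5-KO 2iLAF, 0.70 TPM in WT 5iLAF, 0.23 TPM in WT 2iLAF, 0.12 TPM in B3GALT5-KO basal and 0.59 TPM in WT basal.

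AZU1 (azurocidin, a protease relative without enzymatic activity) departed from that pattern. It was at 9.09 TPM in B3GALT5-KO 2iLAF, 0.42 TPM in WT 5iLAF, 2.91 TPM in WT 2iLAF, 0.60 TPM in B3GALT5-KO basal and 0.07 TPM in WT basal. It was the only primary granule gene of 11 to reach 1 TPM outside B3GALT5-KO 2iLAF. AZU1, PRTN3 and ELANE are adjacent genes on chromosome 19. The genes at either end of that run were PLPPR3, at 10.3 TPM in B3GALT5-KO 2iLAF and 61.3 TPM in WT 2iLAF, and CFD (complement factor D), at 2.07 TPM in B3GALT5-KO 2iLAF and 3.03 TPM in WT 2iLAF. Neither flanking gene was highest in B3GALT5-KO 2iLAF.

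The promoters of AZU1 and PRTN3 are shown because these neighbours share a library of high level yet differ in WT 2iLAF. RefSeq sequence (GRCh38.p14) of the 250 bases before the gene start was taken for the 24 of 35 members that had an entry. It was searched on both strands for a C/EBP letter pattern (TTGCNNAA), a PU.1 core (GAGGAA) and a TATA box (TATAAA), after the myeloid factors C/EBP and PU.1 that drive granule genes. Capitals mark matches on either strand, and both genes lie on the plus strand, at chr19:827587-827836 and chr19:840749-840998.
AZU1: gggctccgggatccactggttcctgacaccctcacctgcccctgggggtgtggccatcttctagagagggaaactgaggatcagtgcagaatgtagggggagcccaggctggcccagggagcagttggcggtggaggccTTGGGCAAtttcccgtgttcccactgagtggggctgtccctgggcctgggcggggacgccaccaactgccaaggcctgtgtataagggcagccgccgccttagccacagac
PRTN3: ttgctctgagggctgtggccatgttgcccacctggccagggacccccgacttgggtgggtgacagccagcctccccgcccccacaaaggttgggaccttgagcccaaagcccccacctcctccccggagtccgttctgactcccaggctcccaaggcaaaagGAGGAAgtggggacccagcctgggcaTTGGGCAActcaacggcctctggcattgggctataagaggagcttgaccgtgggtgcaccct
AZU1 held a single C/EBP match starting 111 bases before the gene start, and PRTN3 held a C/EBP match at 62 bases and a PU.1 match at 88 bases. No TATAAA was found in either window. Over the 24 members, 8 (33.3%) held the C/EBP pattern, against 6.15% of the 11399 windows of genes that reached 1 TPM in any library and 9.13% of all 27305 windows. The PU.1 core was in 14 members (58.3%), against 23.0% and 23.4%, and TATAAA was in 6 members (25.0%), against 5.63% and 11.1%. These are letter matches and say nothing about binding, and near-identical or neighbouring genes are not independent.

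In B3GALT5-KO 2iLAF the median secondary and tertiary granule gene was at 17.0 TPM and the median primary granule gene at 10.2 TPM, although the defensins gave the primary stage the larger sum. LTF (lactoferrin, which binds iron) was at 28.4 TPM in B3GALT5-KO 2iLAF, 0.14 TPM in WT 5iLAF, 0.07 TPM in WT 2iLAF, 0.03 TPM in B3GALT5-KO basal and 0.31 TPM in WT basal. CAMP, the precursor of the antimicrobial peptide LL-37, was at 17.4 TPM in B3GALT5-KO 2iLAF and 0.17 TPM in WT 5iLAF, and was listed at 0 in the remaining libraries. Both were thus above 10 TPM in B3GALT5-KO 2iLAF and below 0.5 TPM in every other library. PGLYRP1, which binds bacterial peptidoglycan, was at 8.15 TPM, MMP8 (neutrophil collagenase) at 5.09 TPM and CRISP3 at 4.22 TPM in B3GALT5-KO 2iLAF, and all were listed at 0 elsewhere. OLFM4 (olfactomedin 4, found in a subset of neutrophils) was at 3.54 TPM in B3GALT5-KO 2iLAF, 0 in WT 5iLAF, 0.06 TPM in WT 2iLAF, 0.05 TPM in B3GALT5-KO basal and 0 in WT basal. OLFM4 was near 0 outside B3GALT5-KO 2iLAF. CEACAM8 (CD66b, a surface adhesion protein held in specific granules) was the lowest member, at 2.85 TPM in B3GALT5-KO 2iLAF, 0.54 TPM in WT 5iLAF, 0.05 TPM in WT 2iLAF, 0.14 TPM in B3GALT5-KO basal and 0.17 TPM in WT basal. FCN1 (ficolin-1, a lectin also made by monocytes) was at 17.0 TPM in B3GALT5-KO 2iLAF and listed at 0 elsewhere.

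**Figure D2:**
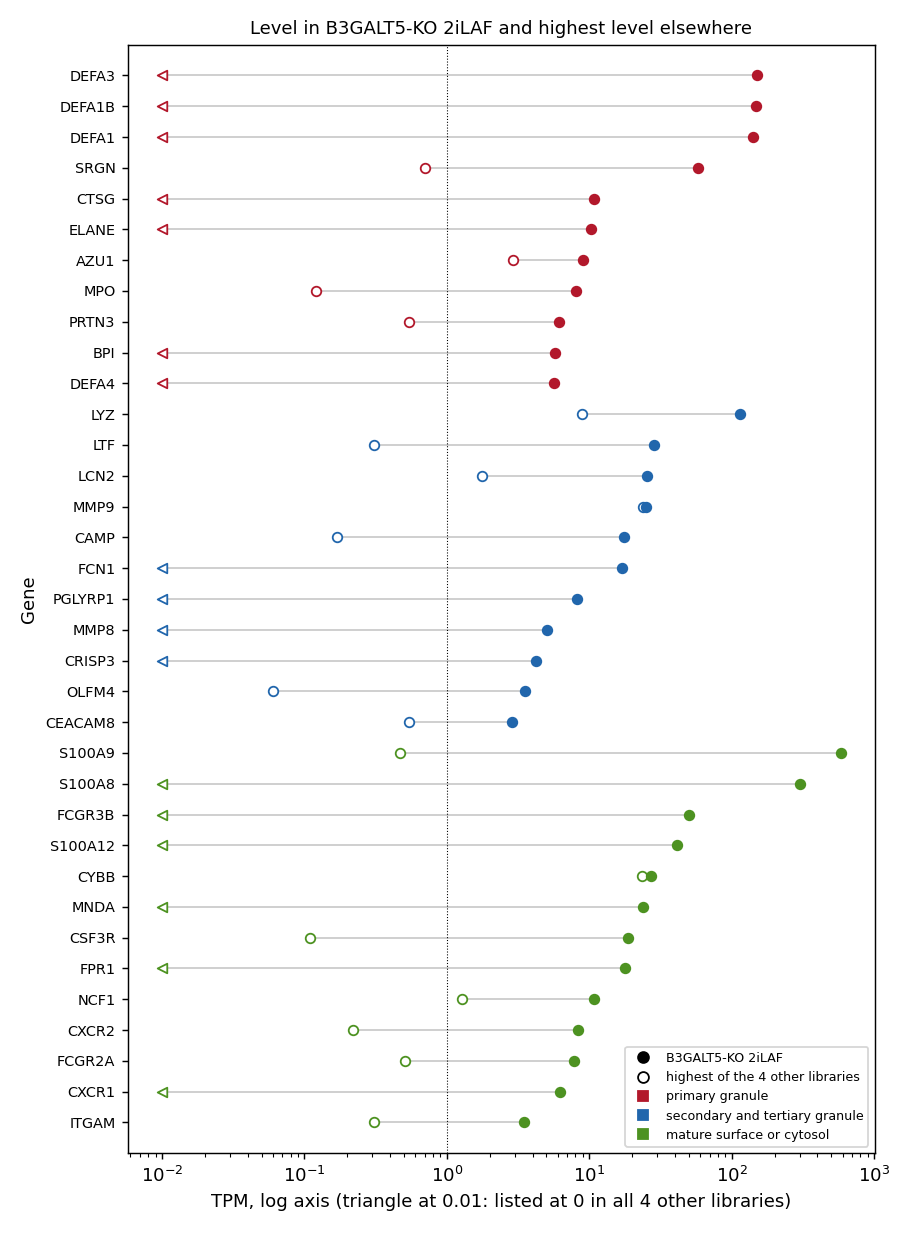
Level of each neutrophil gene in B3GALT5-KO 2iLAF (filled) and in the highest of the 4 other libraries (open; a triangle means listed at 0 in all 4) on a log TPM axis, coloured by maturation stage, with a dotted line at 1 TPM. Open symbols lie right of the line only for AZU1, LYZ, LCN2, MMP9, CYBB and NCF1, and nearly touch the filled symbol for MMP9 and CYBB.

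LYZ, LCN2 and MMP9 were the granule genes of the later stages that other libraries also carried. LYZ (lysozyme, which cleaves bacterial cell walls and is also made by macrophages) was at 114 TPM in B3GALT5-KO 2iLAF, 8.94 TPM in WT 5iLAF, 1.60 TPM in WT 2iLAF, 2.03 TPM in B3GALT5-KO basal and 1.46 TPM in WT basal. It was thus present in every library and highest in both that are labelled naive. LCN2 (lipocalin 2, which captures bacterial siderophores and is also made by epithelia) was at 25.3 TPM in B3GALT5-KO 2iLAF, 0.15 TPM in WT 5iLAF, 1.77 TPM in WT 2iLAF, 1.68 TPM in B3GALT5-KO basal and 0.82 TPM in WT basal. Its lowest value was in WT 5iLAF, the other library labelled naive.

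MMP9 (gelatinase B, a tertiary granule protease that many other cells secrete) was the member with the most even levels outside WT 2iLAF. It was at 25.1 TPM in B3GALT5-KO 2iLAF, 23.7 TPM in WT 5iLAF, 0.52 TPM in WT 2iLAF, 8.38 TPM in B3GALT5-KO basal and 16.2 TPM in WT basal. WT 2iLAF was the low library, and the level in B3GALT5-KO 2iLAF was 1.06 times that in WT 5iLAF. Without MMP9, the secondary and tertiary granule sum was 9.94 TPM in WT 5iLAF, 3.93 TPM in B3GALT5-KO basal and 2.76 TPM in WT basal, against 33.7, 12.3 and 19.0 TPM with it.

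**Figure D3:**
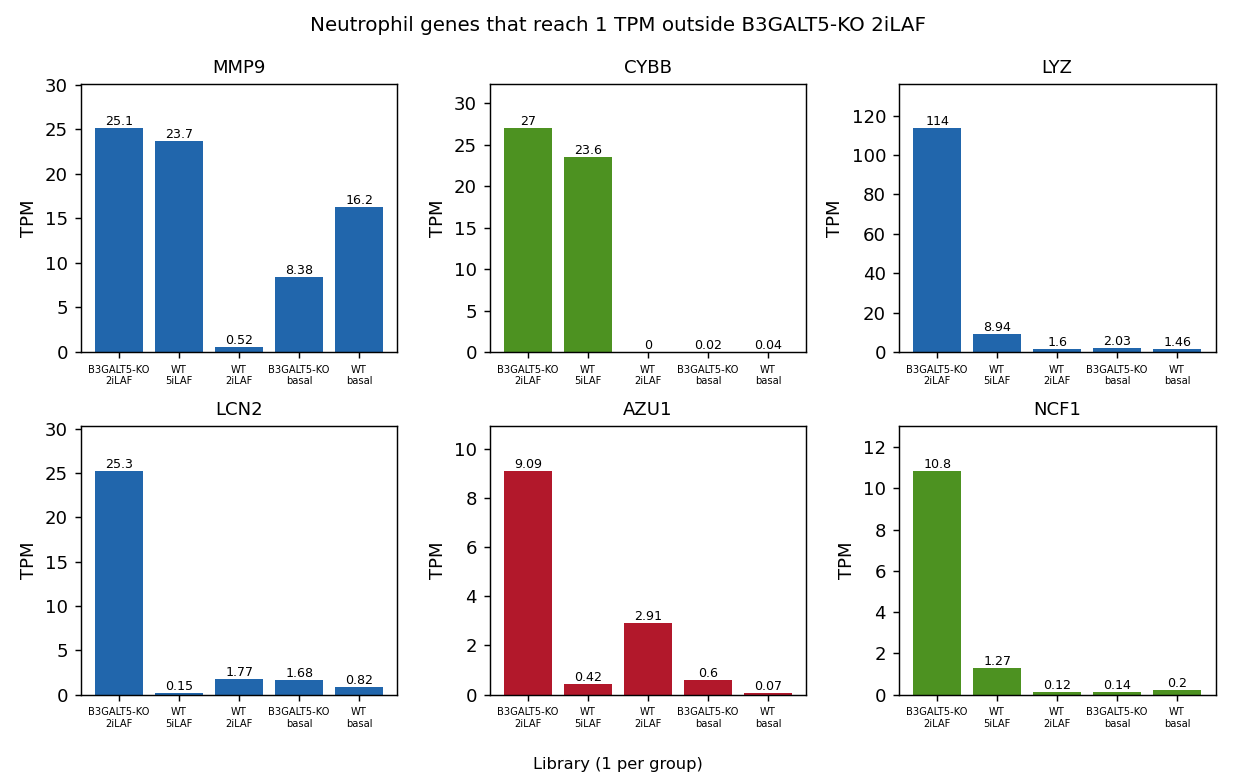
Levels in TPM (bars, 1 library each, axis from 0) of the 6 neutrophil genes that reached 1 TPM outside B3GALT5-KO 2iLAF, coloured by stage as before. MMP9 is low only in WT 2iLAF, CYBB is high in B3GALT5-KO 2iLAF and WT 5iLAF, and LYZ, LCN2, AZU1 and NCF1 are tallest in B3GALT5-KO 2iLAF with lower bars elsewhere.

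Genes of the mature cell reached the highest levels. S100A9 and S100A8, the subunits of calprotectin that fill neutrophil cytosol, are known as the most abundant proteins of that compartment. S100A9 was at 583 TPM in B3GALT5-KO 2iLAF, rank 237 of all genes in that library, and at 0.47 TPM in WT 5iLAF and 0 in WT 2iLAF and both basal libraries. S100A8 was at 299 TPM, rank 507, and was listed at 0 in all 4 other libraries. S100A12, a related S100 protein that binds the receptor RAGE, was at 41.1 TPM and listed at 0 elsewhere. The 3 genes are adjacent on chromosome 1, and the genes at the ends of that run, PGLYRP4 and S100A7A, were at 0.15 TPM and 0 in B3GALT5-KO 2iLAF. Other S100 genes of wide expression had values in every library. S100A11 was at 1869 TPM in B3GALT5-KO 2iLAF, 1670.0 TPM in WT 5iLAF, 110.0 TPM in WT 2iLAF, 439 TPM in B3GALT5-KO basal and 542 TPM in WT basal. S100A10 was at 1310 TPM in B3GALT5-KO 2iLAF, 617 TPM in WT 5iLAF, 108 TPM in WT 2iLAF, 77.5 TPM in B3GALT5-KO basal and 66.4 TPM in WT basal. S100A6, S100A4 and S100A13 were also highest in B3GALT5-KO 2iLAF, with WT 5iLAF next, while S100A16 was highest in WT 5iLAF.

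The promoter windows of this adjacent trio are shown with the same letter patterns in capitals, S100A9 on the plus strand at chr1:153357604-153357853, and S100A8 and S100A12 on the minus strand at chr1:153391189-153391438 and chr1:153375622-153375871.
S100A9: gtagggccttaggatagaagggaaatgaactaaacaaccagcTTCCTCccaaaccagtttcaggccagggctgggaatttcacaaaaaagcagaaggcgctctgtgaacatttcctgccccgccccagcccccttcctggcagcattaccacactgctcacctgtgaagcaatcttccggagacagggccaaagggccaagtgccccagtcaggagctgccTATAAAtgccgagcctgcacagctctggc
S100A8: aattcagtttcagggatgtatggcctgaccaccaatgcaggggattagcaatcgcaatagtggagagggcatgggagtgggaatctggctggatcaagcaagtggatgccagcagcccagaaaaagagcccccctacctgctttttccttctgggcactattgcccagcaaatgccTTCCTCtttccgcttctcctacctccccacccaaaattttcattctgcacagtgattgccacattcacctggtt
S100A12: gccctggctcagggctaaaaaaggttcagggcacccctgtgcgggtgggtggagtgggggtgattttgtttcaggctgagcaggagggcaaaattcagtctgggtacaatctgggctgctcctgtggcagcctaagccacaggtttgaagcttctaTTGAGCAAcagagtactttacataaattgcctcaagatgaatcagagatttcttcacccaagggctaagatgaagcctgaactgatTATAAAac
S100A9 held a PU.1 match at 208 bases and a TATAAA at 29 bases before the gene start. S100A8 held a PU.1 match at 74 bases, and S100A12 a C/EBP match at 94 bases and a TATAAA at 8 bases. The trio shared no pattern in all 3 windows.

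Surface receptors of the mature cell were also highest in B3GALT5-KO 2iLAF. FCGR3B, the lipid-anchored Fc receptor CD16b that marks mature human neutrophils, was at 50.4 TPM there and listed at 0 in the other 4 libraries. Its close relative FCGR3A, the form of natural killer cells and macrophages, was at 6.45 TPM there and 0 elsewhere, and reads of this pair may be divided unevenly. FPR1, the receptor for formylated bacterial peptides, was at 17.9 TPM and CXCR1, a receptor for CXCL8, at 6.24 TPM, and both were listed at 0 in the other libraries. These receptors were thus without a value in the other 4 libraries. CXCR2, the neighbouring receptor gene on chromosome 2, was at 8.31 TPM in B3GALT5-KO 2iLAF, 0.05 TPM in WT 5iLAF, 0.21 TPM in WT 2iLAF, 0.17 TPM in B3GALT5-KO basal and 0.22 TPM in WT basal. CSF3R, the receptor for the granulocyte growth factor G-CSF, was at 18.6 TPM in B3GALT5-KO 2iLAF and 0.11 TPM in WT 5iLAF, and was listed at 0 in WT 2iLAF and both basal libraries. Both CXCR2 and CSF3R stayed below 0.25 TPM outside B3GALT5-KO 2iLAF. FCGR2A, an activating Fc receptor of many myeloid cells, was at 7.84 TPM in B3GALT5-KO 2iLAF, 0 in WT 5iLAF, 0.04 TPM in WT 2iLAF, 0.37 TPM in B3GALT5-KO basal and 0.51 TPM in WT basal. ITGAM, the integrin chain CD11b, was the lowest mature gene, at 3.47 TPM in B3GALT5-KO 2iLAF and between 0.07 and 0.31 TPM in the others.

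MNDA, a nuclear antigen of myeloid cells, was at 23.9 TPM in B3GALT5-KO 2iLAF and listed at 0 elsewhere. Ligands for these receptors were low: CXCL8 was at 4.07 TPM in B3GALT5-KO 2iLAF and no higher than 0.22 TPM elsewhere, and CSF3, which encodes G-CSF, was at or below 0.07 TPM in all 5 libraries. CXCL5, another CXCR2 ligand, was lower in B3GALT5-KO 2iLAF than in any other library, at 1.42 TPM in B3GALT5-KO 2iLAF, 1.90 TPM in WT 5iLAF, 6.46 TPM in WT 2iLAF, 10.2 TPM in B3GALT5-KO basal and 8.77 TPM in WT basal.

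The NADPH oxidase, the enzyme complex that makes superoxide on engulfed microbes, was divided between libraries. CYBB, its catalytic gp91phox chain, was at 27.0 TPM in B3GALT5-KO 2iLAF, 23.6 TPM in WT 5iLAF, 0 in WT 2iLAF, 0.02 TPM in B3GALT5-KO basal and 0.04 TPM in WT basal. Both libraries labelled naive thus held CYBB at a near-equal level, 1.14 times as high in B3GALT5-KO 2iLAF. NCF1, the p47phox organiser, was at 10.8 TPM in B3GALT5-KO 2iLAF, 1.27 TPM in WT 5iLAF, 0.12 TPM in WT 2iLAF, 0.14 TPM in B3GALT5-KO basal and 0.20 TPM in WT basal. Its near-identical copies NCF1B and NCF1C summed to 7.14 TPM in B3GALT5-KO 2iLAF and at most 0.66 TPM elsewhere, so the value of NCF1 alone is uncertain. NCF4 (p40phox) was at 9.0 TPM in B3GALT5-KO 2iLAF, 1.15 TPM in WT 5iLAF, 0 in WT 2iLAF, 0 in B3GALT5-KO basal and 0.10 TPM in WT basal. CYBA, the widely expressed partner chain, was present in every library, at 163 TPM in B3GALT5-KO 2iLAF, 133 TPM in WT 5iLAF, 221 TPM in WT 2iLAF, 258 TPM in B3GALT5-KO basal and 310 TPM in WT basal. RAC2, the small GTPase that activates the complex in blood cells, was at 45.5 TPM in B3GALT5-KO 2iLAF, 36.8 TPM in WT 5iLAF, 6.53 TPM in WT 2iLAF, 6.12 TPM in B3GALT5-KO basal and 8.95 TPM in WT basal. WT 5iLAF thus carried CYBB and RAC2 near their levels in B3GALT5-KO 2iLAF, with NCF1 and NCF4 lower.

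The CYBB window, on the plus strand at chrX:37779809-37780058, is shown because CYBB was the 1 mature gene that both libraries labelled naive held above 10 TPM.
CYBB: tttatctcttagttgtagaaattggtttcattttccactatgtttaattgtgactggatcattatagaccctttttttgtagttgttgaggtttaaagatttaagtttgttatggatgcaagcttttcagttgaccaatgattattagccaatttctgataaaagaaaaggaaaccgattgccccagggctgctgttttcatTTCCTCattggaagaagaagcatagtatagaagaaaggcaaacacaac
It held a PU.1 match at 48 bases before the gene start and neither other pattern.

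Genes were also compared pairwise between libraries on the log2((TPM + 1)/(TPM + 1)) scale, with a gene counted at a size of at least 2-fold. The list was chosen with these contrasts in view, and 29 of its members passed the filter of 1 TPM through B3GALT5-KO 2iLAF alone, so the first counts support nothing and only describe. Against B3GALT5-KO basal, all 35 were higher and 0 lower in B3GALT5-KO 2iLAF, beside 15.9% and 11.8% of 15761 genes. Against WT 2iLAF, all 35 were higher and 0 lower, beside 16.6% and 10.8% of genes. Against WT 5iLAF, 33 were higher and 0 lower, beside 4.90% and 1.03% of genes, and the exceptions were MMP9 and CYBB with log2 ratios of 0.08 and 0.19. These 3 comparisons share the B3GALT5-KO 2iLAF library. The median log2 ratio over the members was 3.49, 3.57 and 3.49 in those comparisons, against 0.02, 0.10 and 0.00 over all genes, and its size is set by the added 1 TPM where a member was listed at 0.

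The comparisons without B3GALT5-KO 2iLAF gave few calls. With 1 TPM added, the 29 members below 1 TPM in all 4 other libraries could not reach 2-fold in them. Only the 6 members that reached 1 TPM in another library could be called, so the low counts do not show stable levels. Between B3GALT5-KO basal and WT basal, 0 members were higher and 0 lower, beside 0.704% and 1.05% of genes. Between WT 5iLAF and WT basal, LYZ and CYBB were higher, 2 of 35 beside 10.7% of genes, with log2 ratios of 2.02 and 4.56, and 0 were lower, beside 11.4%. Between WT 2iLAF and WT basal, AZU1 was higher (log2 ratio 1.87), 1 of 35 beside 4.73% of genes, and MMP9 was lower (log2 ratio -3.50), 1 of 35 beside 7.03%. These 3 comparisons share the WT basal library.

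A wider list held 60 neutrophil genes outside the members. Of the 52 that reached 1 TPM in any library, 45 were higher and 3 lower in B3GALT5-KO 2iLAF than in B3GALT5-KO basal, beside 15.9% and 11.8% of all genes. Against WT 5iLAF, 33 were higher and 0 lower, beside 4.90% and 1.03% of all genes. Some of the 52, such as CST7 and RNASE3, passed the filter of 1 TPM through B3GALT5-KO 2iLAF alone, so these counts only describe. VNN2, a surface protein of neutrophils, was at 10.47 TPM and AQP9, a glycerol channel of leukocytes, at 7.05 TPM, both listed at 0 elsewhere. CHI3L1, a specific granule protein also made by fibroblast-like cells, was at 46.5 TPM in B3GALT5-KO 2iLAF, 7.39 TPM in WT 5iLAF, 0.47 TPM in WT 2iLAF, 0.12 TPM in B3GALT5-KO basal and 0.07 TPM in WT basal. The most abundant genes of that list, S100A11, ANXA3 and CTSC, were present in all 5 libraries. CTSC, which activates the granule proteases, was lower in B3GALT5-KO 2iLAF (210 TPM) than in B3GALT5-KO basal (426 TPM).

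Transcription factors of granulocyte development did not all accompany the granule genes. SPI1, which encodes PU.1, was at 24.6 TPM in B3GALT5-KO 2iLAF, 15.7 TPM in WT 5iLAF, 0.21 TPM in WT 2iLAF, 0.11 TPM in B3GALT5-KO basal and 0.05 TPM in WT basal. CEBPD, a C/EBP factor of late granulocytes and of many stimulated cells, was at 22.9 TPM in B3GALT5-KO 2iLAF, 9.17 TPM in WT 5iLAF, 3.48 TPM in WT 2iLAF, 2.39 TPM in B3GALT5-KO basal and 2.37 TPM in WT basal. CEBPE, which drives the secondary granule genes in the marrow, was at 0.07 TPM in B3GALT5-KO 2iLAF and listed at 0 elsewhere. GFI1, a repressor needed for neutrophil commitment, was at 0.83 TPM in B3GALT5-KO 2iLAF and 0.58 TPM in WT 5iLAF. MYB, a factor of immature blood cells, was lower at 1.5 TPM in B3GALT5-KO 2iLAF than in any other library, with 7.25 TPM in WT 2iLAF. Of 13 factors, 11 reached 1 TPM in any library. Of these 11, 6 were higher and 1 lower in B3GALT5-KO 2iLAF than in B3GALT5-KO basal, beside 15.9% and 11.8% of all genes. Against WT 5iLAF, 2 were higher and 0 lower, beside 4.90% and 1.03% of all genes.

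**Figure D4:**
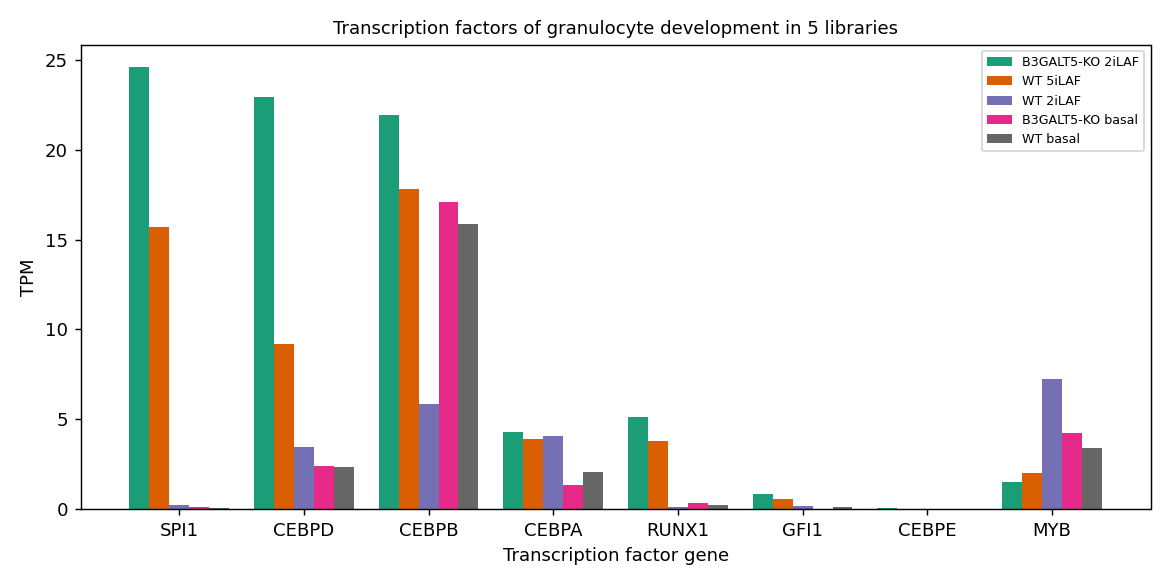
Levels in TPM (bars, 1 library each, axis from 0) of 8 transcription factor genes of granulocyte development in the 5 libraries. SPI1 is high in B3GALT5-KO 2iLAF and WT 5iLAF at 24.6 and 15.7 TPM, CEBPE is at most 0.07 TPM in every library, and MYB is highest in WT 2iLAF at 7.25 TPM.

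Markers of other cells were set beside the members, and their part in the result was not tested. Some of these markers passed the filter of 1 TPM through B3GALT5-KO 2iLAF alone, so their counts only describe. The 21 pan-leukocyte genes summed to 410 TPM in B3GALT5-KO 2iLAF, 254 TPM in WT 5iLAF, 62.1 TPM in WT 2iLAF, 85.1 TPM in B3GALT5-KO basal and 94.9 TPM in WT basal. Of these, 16 were higher and 0 lower than in B3GALT5-KO basal, beside 15.9% and 11.8% of all genes. Against WT 5iLAF, 13 were higher and 0 lower, beside 4.90% and 1.03% of all genes. PTPRC (CD45, the defining leukocyte surface protein) was at 8.83 TPM in B3GALT5-KO 2iLAF, 1.57 TPM in WT 5iLAF, 0 in WT 2iLAF, 0.08 TPM in B3GALT5-KO basal and 0.04 TPM in WT basal. TYROBP, a signalling adaptor of myeloid and natural killer cells, was at 19.8 TPM in B3GALT5-KO 2iLAF and at most 0.49 TPM elsewhere. The actin-bundling gene LCP1 did not follow, at 75.1 TPM in B3GALT5-KO 2iLAF and 85.9 TPM in WT 5iLAF.

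Eosinophil, basophil and mast cell genes (14 in the list) summed to 33.1 TPM in B3GALT5-KO 2iLAF and between 2.59 and 7.0 TPM elsewhere. Of the 6 that reached 1 TPM, 5 were higher and 0 lower than in B3GALT5-KO basal, beside 15.9% and 11.8% of all genes. CLC, the Charcot-Leyden crystal protein, was at 12.96 TPM in B3GALT5-KO 2iLAF, 0 in WT 5iLAF and WT 2iLAF, 2.83 TPM in B3GALT5-KO basal and 3.28 TPM in WT basal. PRG2, the eosinophil major basic protein, was at 10.2 TPM in B3GALT5-KO 2iLAF and at most 0.61 TPM elsewhere. EPX, eosinophil peroxidase, was at 1.77 TPM in B3GALT5-KO 2iLAF and at most 0.05 TPM elsewhere, while CMA1 and SIGLEC8 were listed at 0 in B3GALT5-KO 2iLAF. The 13 T and natural killer cell genes found summed to 26.1 TPM in B3GALT5-KO 2iLAF and between 2.39 and 4.90 TPM elsewhere, led by NKG7, a cytotoxic granule protein, at 8.13 TPM and listed at 0 in the other 4. Of the 8 of these that reached 1 TPM, 5 were higher and 0 lower than in B3GALT5-KO basal, beside the same shares of all genes. The 20 monocyte and macrophage genes summed to 59.2 TPM in B3GALT5-KO 2iLAF, 12.7 TPM in WT 5iLAF, 47.8 TPM in WT 2iLAF, 78.4 TPM in B3GALT5-KO basal and 73.2 TPM in WT basal. Of the 8 that reached 1 TPM, 6 were higher and 1 lower than in B3GALT5-KO basal, again beside 15.9% and 11.8% of all genes. CD74, an antigen presentation chain, was the most abundant of them at 22.0 TPM in B3GALT5-KO 2iLAF and 71.4 TPM in B3GALT5-KO basal. CD14 was at 4.5 TPM in B3GALT5-KO 2iLAF and at most 0.15 TPM elsewhere, and the macrophage complement genes C1QA, C1QB and C1QC were at 0, 0.11 and 0.09 TPM.

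B cell and platelet lists had few genes above 1 TPM. The 9 B and plasma cell genes found summed to 7.25 TPM in B3GALT5-KO 2iLAF and 3.0 to 8.79 TPM elsewhere, with MS4A1 at 0.16 TPM in B3GALT5-KO 2iLAF and CD79B the highest at 3.51 TPM there and 6.55 TPM in WT basal. JCHAIN, the antibody joining chain of plasma cells, was at 2.80 TPM in B3GALT5-KO 2iLAF and at most 0.14 TPM elsewhere. The 10 platelet genes summed to 14.5 TPM in B3GALT5-KO 2iLAF, 13.7 TPM in WT 5iLAF, 8.82 TPM in WT 2iLAF, 8.48 TPM in B3GALT5-KO basal and 6.88 TPM in WT basal. Of the 3 tested, 1 was higher and 1 lower than in B3GALT5-KO basal, beside 15.9% and 11.8% of all genes. ITGB3, an integrin chain of platelets and other cells, was at 8.49 TPM in B3GALT5-KO 2iLAF, 6.53 TPM in WT 5iLAF and at most 0.14 TPM in the rest. The platelet genes GP9 and GP1BB were listed at 0 in B3GALT5-KO 2iLAF, and PF4 was at 0.26 TPM. The 12 blood progenitor genes summed to 37.9 TPM in B3GALT5-KO 2iLAF and 28.7 TPM in WT 5iLAF, below the 74.3 to 85.8 TPM of the remaining libraries, and CD34 was at 0.23 TPM in B3GALT5-KO 2iLAF. PROM1 and KIT made up most of these sums. Of the 7 progenitor genes tested, 4 were higher and 3 lower than in B3GALT5-KO basal, beside the same shares of all genes. Their median log2 ratio was 1.16. MEIS1 was among the higher ones, at 4.68 TPM in B3GALT5-KO 2iLAF and 0.09 TPM in B3GALT5-KO basal. Squamous epithelial genes, included because such epithelia also make S100A8, S100A9 and LCN2, summed to 13.9 TPM in B3GALT5-KO 2iLAF and 12.6 to 14.8 TPM elsewhere. IVL and SPRR1A were listed at 0 in every library. SFN, KRT5 and KRT14 were at 8.94, 2.51 and 1.33 TPM in B3GALT5-KO 2iLAF, against 11.6, 1.13 and 0 TPM in B3GALT5-KO basal. Of the 3 genes tested, 1 was higher and 0 lower than in B3GALT5-KO basal, beside 15.9% and 11.8% of all genes.

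Erythroid genes were counted as a list of 25. Of the 15 that reached 1 TPM, 9 were higher and 3 lower in B3GALT5-KO 2iLAF than in B3GALT5-KO basal, beside 15.9% and 11.8% of all genes. The list summed to 264 TPM in B3GALT5-KO 2iLAF, 46.8 TPM in WT 5iLAF, 47.7 TPM in WT 2iLAF, 166 TPM in B3GALT5-KO basal and 327 TPM in WT basal. The list gene TFRC alone was at 27.7 TPM in B3GALT5-KO 2iLAF, 24.8 TPM in WT 5iLAF and 38.3 TPM in WT 2iLAF. It was at 151 TPM in B3GALT5-KO basal, where it made up most of the sum, and at 84.0 TPM in WT basal. Adult beta-globin HBB was at 112 TPM in B3GALT5-KO 2iLAF and 140.2 TPM in WT basal, and at most 0.21 TPM in the others. In WT basal the 35 neutrophil genes summed to 21.1 TPM, and to 2.76, 1.12 and 1.04 TPM for the later granule genes without MMP9, the primary granule genes and the mature genes. MMP9 alone was 16.2 TPM of the 21.1 TPM, and leaving it out was a choice made after seeing the data.

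**Figure D5:**
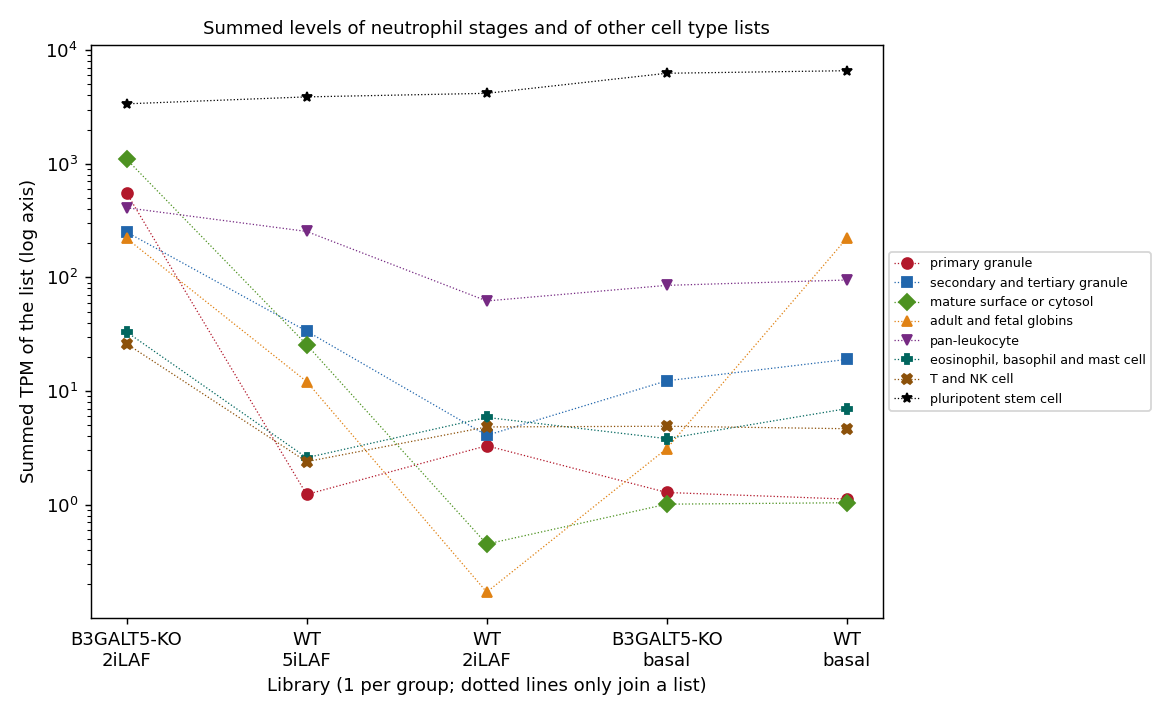
Summed TPM (log axis) of the 3 neutrophil stages, of 4 other blood lists and of pluripotency genes in each of the 5 libraries, with dotted lines only joining the points of a list. The neutrophil stages peak in B3GALT5-KO 2iLAF at 251 to 1098 TPM, the globins peak there and in WT basal at 220.6 and 221.5 TPM, and the pluripotency sum ranges from 3368 to 6592 TPM.

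The genes whose pattern was most like that of the members were sought by the log2 ratio of TPM + 1 in B3GALT5-KO 2iLAF over the highest other library, across 5 libraries, among the 10937 genes that reached 5 TPM in B3GALT5-KO 2iLAF. The members were chosen with these same values in view, so their place in this order supports nothing and only describes. Of the first 10 genes, 9 were members, led by S100A9 and S100A8 with log2 ratios of 8.63 and 8.23. The other was DCN (decorin, a collagen-binding matrix proteoglycan), at 48.3 TPM in B3GALT5-KO 2iLAF and 0.33 TPM in WT 5iLAF. Of the first 50, 19 were members and 7 were in a blood cell list, while 24 were in neither. Among those 24 were the matrix and growth factor genes LUM, COL15A1, RSPO2 and HGF, for which WT 5iLAF was the next library, and these 4 were named after their values were seen. LUM (lumican) was at 438 TPM in B3GALT5-KO 2iLAF and 17.99 TPM in WT 5iLAF, and HGF at 55.3 TPM in B3GALT5-KO 2iLAF and 2.97 TPM in WT 5iLAF. The leading non-members in a blood list included RNASE2, TYROBP, VNN2, ARHGDIB, NKG7, AQP9, PRG2, CD53, FGR, CST7, S100P, CD48 and ALOX5AP, with log2 ratios between 3.81 and 2.52. RNASE2, an eosinophil and neutrophil ribonuclease, was at 14.4 TPM in B3GALT5-KO 2iLAF and at most 0.10 TPM elsewhere. MMP9 and CYBB ranked 2359 and 1608 by that measure.

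Genes beside the members on the chromosome were also read. Of the 35 members, 12 lie next to another member in the RefSeq gene order. Of 50 neighbouring protein-coding genes outside the list, 5 had a ratio of at least 2-fold in B3GALT5-KO 2iLAF over the highest other library. The same held for 33 of the 35 members, whose ratios chose them. The share of all genes with such a ratio was not computed, so the 5 were not read as many or few. Among the 10937 genes that reached 5 TPM in B3GALT5-KO 2iLAF, rank 290 had a log2 ratio of 1.12 and rank 346 had 0.95. ITGAX, the CD11c integrin chain next to ITGAM, was among the 5 neighbours, at 4.85 TPM in B3GALT5-KO 2iLAF and at most 0.31 TPM elsewhere, as was FCGR3A. Widely expressed neighbours such as MRPS15 beside CSF3R, at 153 TPM in B3GALT5-KO 2iLAF and 220.0 TPM in B3GALT5-KO basal, had no such ratio.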

How the data were processed

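RNA of 5 H9 cultures was measured by poly(A)-selected sequencing with a stranded TruSeq kit, per the labels' protocols. The submitters' processing notes name Trimmomatic 0.39, Bowtie2 2.3.4.1 and RSEM 1.2.28 with genome build hg19. Annotation and strand setting were not given in the sources used here. Per the file headers, the authors deposited a TPM and an FPKM value per gene and library, and 18 further columns were empty. RSEM divides reads that fit several genes, so copies of DEFA1, NCF1 and FCGR3B are uncertain as single values. No steps of whole reads could be read from low FPKM values (at most 6.66% of genes between 0.15 and 0.6 FPKM in a pair of libraries fell in one log2 ratio bin of 0.05), so depth is unknown and no counting interval is given. Genes reaching 1 TPM in any library (15761) were compared as log2((TPM + 1)/(TPM + 1)), counted at 2-fold, in 6 comparisons; this scale understates low genes. Members and lists were chosen with earlier results of these data known. Named genes were every member, up to 4 genes per other list at the highest TPM in B3GALT5-KO 2iLAF, its defining genes at 0, and the first 15 blood-list and first 10 of all genes by likeness of pattern; others were chosen after their values were seen. SRGN, LYZ, FCN1 and MNDA, which have no single stage, were placed with the primary granule, later granule (LYZ, FCN1) and mature genes. Promoters are RefSeq GRCh38.p14. Calculations, tested on simulated data, used Python 3.11.15, numpy 2.4.6 and pandas 2.3.3. Alternatives were other pseudocounts, filters, scalings, size rules, FPKM and left-out members. Some genes that this rule selects are not reported here.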

Additional observations from a re-analysis of the deposited data

Results flagged for a closer look

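The change from basal medium to 2iLAF went in opposite directions in the 2 genotypes for MMP9. Its log2 ratio of 2iLAF over basal was 1.48 in B3GALT5-KO cells and -3.50 in WT cells. With 1 library per group this difference was not tested.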

How the results depend on the processing

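All 35 members were highest in B3GALT5-KO 2iLAF in TPM, in FPKM and after either scaling. With no member left out, 31 to 35 were higher in that library than in B3GALT5-KO basal, beside 5.92% to 25.8% of all genes. The filter of 5 TPM itself kept 31 members. Against WT 2iLAF, 30 to 35 were higher (6.16% to 27.7%), and against WT 5iLAF 29 to 33 (1.36% to 9.11%). At every setting 0 were lower, beside 3.15% to 22.3%, 2.86% to 19.3% and 0.0698% to 4.61% of all genes. Without the 6 members that reached 1 TPM in another library, all 29 that remained were higher in each comparison. That choice kept only members below 1 TPM in the 4 other libraries, so this count supports nothing. Of 350 single-gene ratios recomputed for B3GALT5-KO 2iLAF against B3GALT5-KO basal or WT 5iLAF, 9, of the low genes OLFM4, CEACAM8, CRISP3 and ITGAM, were at least 2-fold as reported but below it with a pseudocount of 5 or, for CEACAM8, in FPKM, and none reversed. MMP9 and CYBB against WT 5iLAF stood below 2-fold at every setting. Small counts moved most. With a pseudocount of 0.1, members higher and lower were 2 and 2 between B3GALT5-KO basal and WT basal (beside 2.08% and 3.32% of all genes), 8 and 4 between WT 5iLAF and WT basal (14.3% and 15.5%), and 2 and 5 between WT 2iLAF and WT basal (7.68% and 11.4%). With a pseudocount of 5 or a 4-fold rule, 0 were higher in WT 2iLAF than in WT basal. With a 1.5-fold rule, 1 was lower in B3GALT5-KO basal (beside 4.82% of all genes) and 2 were lower in WT 5iLAF (22.1%), each against WT basal, and 2 were higher in WT 2iLAF (10.2%). Without AZU1, LCN2, MMP9, LYZ, NCF1 and CYBB, a choice made after seeing the data, 0 were higher in WT 5iLAF or WT 2iLAF than in WT basal and 0 lower in WT 2iLAF. These counts of 0 were fixed in advance, because members below 1 TPM in both libraries cannot reach 2-fold with 1 TPM added.

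Sums depended on single genes. Without the defensins the primary granule sum in B3GALT5-KO 2iLAF was 109 TPM. Without LYZ, SRGN, MNDA and FCN1, the later granule sum was 120.0 TPM in B3GALT5-KO 2iLAF and 2.47 TPM in WT 2iLAF, and the primary granule sum 0.53 TPM in both WT 5iLAF and WT basal. Without MMP9, also chosen after seeing the data, the later granule sum was 9.94 TPM in WT 5iLAF, 3.93 TPM in B3GALT5-KO basal and 2.76 TPM in WT basal. Scaling moved the median of all genes by over 0.1 only between WT 2iLAF and WT basal, -0.13 as deposited and 0.00 after it, and moved no count of members by over 1.5 times. No paired analysis was possible because each group holds 1 library, and no replicate could be left out.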
